A study of Mus musculus with 2 samples.

Results

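The genes of the voltage-gated sodium and calcium channels were followed in a map of the histone variant H2AZ. They were taken by symbol from the protein-coding genes of the mouse assembly GRCm38. The symbols are Scn with a number and a or b, and those starting with Cacna, Cacnb or Cacng, which gave 40 of 21774 protein-coding genes. They fall into 10 sodium channel alpha genes, 4 sodium channel beta genes, 10 Cacna1 genes, 4 Cacna2d genes, 4 Cacnb genes and 8 Cacng genes. The map came from chromatin immunoprecipitation with sequencing (ChIP-seq) against H2AZ in C57BL/6 mice at embryonic day 13, with brain as the tissue and neural progenitor cells as the labelled cell type, and from an input library with the same labels. Each group had 1 library, so no value has a replicate check, and no test between ChIP and input was made. The sources used here do not say how many animals a library pooled.

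Voltage-gated sodium channels open on depolarisation and carry the upstroke of the action potential. Each has a pore-forming alpha subunit, encoded by a Scn gene ending in a, and beta subunits that are cell adhesion proteins of the immunoglobulin superfamily and tune gating and placement. Voltage-gated calcium channels turn depolarisation into calcium entry, which drives transmitter release, muscle contraction and gene expression. Their pore is encoded by a Cacna1 gene, while alpha2delta (Cacna2d) and beta (Cacnb) subunits set how many channels reach the membrane. The Cacng genes encode gamma subunits, of which several are the transmembrane AMPA receptor regulatory proteins that escort glutamate receptors to synapses. These channels are mostly a property of differentiated neurons and muscle, although early forms appear in the embryonic brain. H2AZ takes the place of histone H2A in some nucleosomes and is known to lie around transcription starts.

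The values are a deposited list of peaks, each with a position and a score by which the authors ranked them. What the score measures is not named, so it is used here only to rank and describe peaks within the list. Of the listed peaks 21546 were used, and their median score was 11.9 (quartiles 7.95 and 17.9). The list holds 66.1% of the peak numbers that its names run to, so a gene without a listed peak may have had a peak that was left out. Depth is unknown, since no read numbers were used. A peak was placed at a gene end if any of its bases lay within 1 kb of the lower or higher coordinate of the gene. A peak was interior if it lay wholly inside the gene and clear of those windows. A list of peaks holds no expression values, so the labelled cell type could not be checked by expression. An end peak was present at 4 of 6 progenitor markers and 4 of 6 neuronal markers, beside 55.4% of all protein-coding genes. It was present at 1 of 4 glial, 1 of 4 endothelial and 1 of 5 blood markers. Interior peaks were listed in 1 of 6 progenitor, 1 of 6 neuronal and 3 of 4 glial markers. They were listed in 1 of 4 endothelial and 0 of 5 blood markers, beside 13.8% of all protein-coding genes. These few counts do not check the labelled cell type.

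RefSeq lists transcription starts on the GRCm38.p6 assembly for 30 of the 40 channel genes, 41 starts in all, each with the sequence of 250 bases before it and 50 after. Shown here are the 200 bases before a start for 5 genes on which the results below turn, written 5' to 3' on the strand of the gene, with every CpG dinucleotide in capitals. Scn8a has the end peak of highest score among the channel genes. Scn2a and Cacna1d have starts that differ in their peak, and Cacna2d2 and Cacna2d3 are members of 1 family with and without a listed peak.
Scn8a, first start, chr15:100870445-100870644, plus strand: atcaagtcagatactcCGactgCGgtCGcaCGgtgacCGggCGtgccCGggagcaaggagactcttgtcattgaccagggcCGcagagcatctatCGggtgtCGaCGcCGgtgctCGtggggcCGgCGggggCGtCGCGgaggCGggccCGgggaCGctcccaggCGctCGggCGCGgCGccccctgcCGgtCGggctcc
Scn2a, first start, chr2:65620569-65620768, plus strand: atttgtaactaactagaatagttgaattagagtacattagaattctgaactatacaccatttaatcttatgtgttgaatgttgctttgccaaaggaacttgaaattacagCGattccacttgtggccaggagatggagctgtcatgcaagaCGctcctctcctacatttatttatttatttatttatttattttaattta
Scn2a, second start, chr2:65668486-65668685, plus strand: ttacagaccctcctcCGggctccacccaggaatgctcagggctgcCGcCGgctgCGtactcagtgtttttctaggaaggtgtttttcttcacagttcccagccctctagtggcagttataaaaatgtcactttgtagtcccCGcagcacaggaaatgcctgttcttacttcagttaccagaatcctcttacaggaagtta
Cacna1d, first start, chr14:30491157-30491356, minus strand: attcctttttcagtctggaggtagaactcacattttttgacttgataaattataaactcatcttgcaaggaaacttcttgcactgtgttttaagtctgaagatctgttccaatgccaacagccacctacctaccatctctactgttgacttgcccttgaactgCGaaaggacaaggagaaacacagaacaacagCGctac
Cacna1d, second start, chr14:30353487-30353686, minus strand: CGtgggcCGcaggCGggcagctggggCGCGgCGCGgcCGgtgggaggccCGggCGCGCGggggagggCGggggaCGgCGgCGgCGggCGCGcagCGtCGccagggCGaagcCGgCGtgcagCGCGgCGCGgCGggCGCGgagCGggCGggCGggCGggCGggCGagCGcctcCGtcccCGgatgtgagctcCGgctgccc
Cacna2d2, chr9:107399680-107399879, plus strand: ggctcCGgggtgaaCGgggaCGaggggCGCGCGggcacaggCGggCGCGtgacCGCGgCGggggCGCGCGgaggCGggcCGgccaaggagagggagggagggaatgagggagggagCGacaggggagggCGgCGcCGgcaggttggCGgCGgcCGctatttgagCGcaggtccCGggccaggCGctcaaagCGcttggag
Cacna2d3, chr14:29721865-29722064, minus strand: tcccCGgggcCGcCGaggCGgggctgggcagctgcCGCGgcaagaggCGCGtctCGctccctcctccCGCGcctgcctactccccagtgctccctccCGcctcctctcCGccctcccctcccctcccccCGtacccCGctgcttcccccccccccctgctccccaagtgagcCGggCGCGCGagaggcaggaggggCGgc
The stretch before the second Cacna1d start holds 41 CpG dinucleotides and that before its first start holds 2. The stretch before the Scn8a start holds 28, and those before the first and second Scn2a starts hold 2 and 5. Cacna2d2 and Cacna2d3 are both CpG-rich, with 28 and 20.

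Most channel genes had a listed H2AZ peak, and 20 of the 27 with a peak at an end had a highest score at or below the median of all protein-coding genes with such a peak. An end peak was listed for 27 of 40 channel genes (67.5%, 95% exact binomial interval 50.9 to 81.4%), against 55.4% of all protein-coding genes. An interior peak was listed for 18 channel genes (45%, interval 29.3 to 61.5%), against 13.8% of all protein-coding genes. Both kinds were found in 12 of the 40 channel genes, an end peak alone in 15 and an interior peak alone in 6. Of all 21774 protein-coding genes, 1765 had both kinds, 10295 an end peak alone and 1249 an interior peak alone. The other 7 channel genes had neither (17.5%), against 38.9% of all protein-coding genes. The intervals treat genes as independent draws and cover counting error only, and no test was made of these shares.

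The highest end peak of a channel gene had a median score of 12.8 (quartiles 10.3 and 17.3), against 17.1 (quartiles 12.9 and 21.2) for all protein-coding genes with an end peak. Only 7 of the 27 lay above the median of all genes, among them Scn8a (25.65), Cacnb4 (23.56), Cacnb1 (21.77), Cacna2d2 (20.28) and Cacna1b (19.32). The lowest were Scn3a (6.56), Scn2a and Cacng3 (6.86 each) and Scn7a (7.46). Counting only peaks at or above the median score of the list, 15 channel genes had an end peak (37.5%), against 44.4% of all protein-coding genes. At or above the upper quartile 7 had one (17.5%), against 25.2%. The channel genes were thus above the share of all genes when every listed peak counted and below it when the higher-scoring peaks alone did. Their 28 end peaks had a median width of 1834 bp, against 2180 bp for all 11127 end peaks. At listed starts, which of the groups had the higher median score differed between classes of CpG number, as given below.

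**Figure D1:**
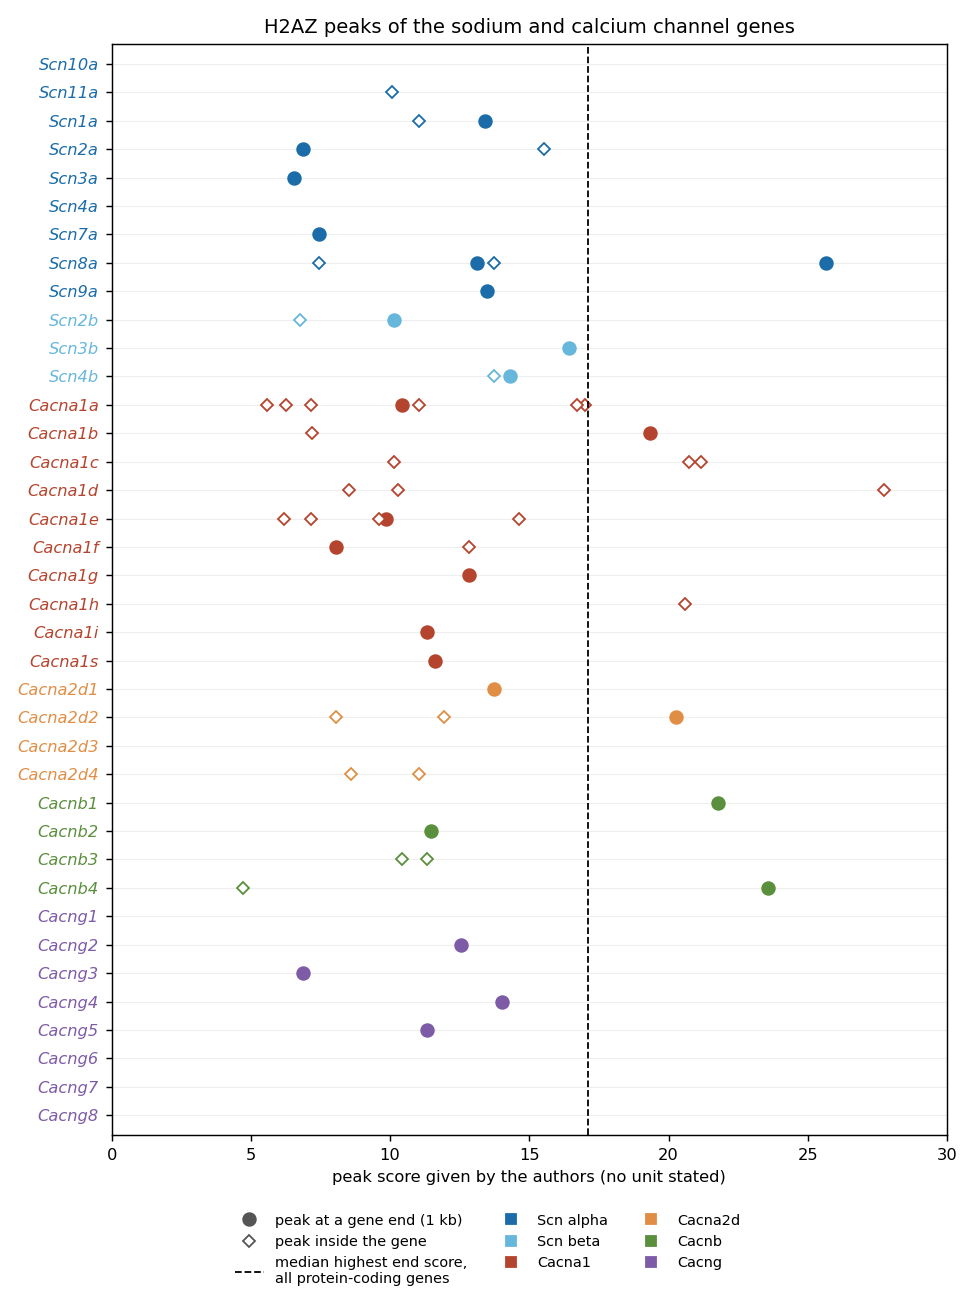
Score of every listed H2AZ peak at an end (filled circles) or inside (open diamonds) of 38 channel genes, coloured by family; the horizontal axis is the score given by the authors, and the dashed line marks the median highest end score of all protein-coding genes, 17.1. Only 5 of these genes have an end peak to the right of the line, and 7 rows are empty.

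Gene length differs widely, and both shares differed between length classes. The channel genes had a median length of 104.0 kb, against 17.2 kb for all protein-coding genes. Among genes of at least 100 kb, 15 of 20 channel genes had an end peak (75%), against 67.5% of all such genes, and 11 of 20 had an interior peak (55.0%), against 42.8%. Between 20 and 100 kb the shares with an end peak were 64.3% of 14 channel genes and 65.5% of all genes, and those with an interior peak 28.6% and 19.0%. Below 20 kb an end peak was found at 3 of 6 channel genes, against 46.4% of all genes. An interior peak was found in 3 of these 6, namely Scn2b, Scn4b and Cacnb3, against 4.55% of all genes. Counted per length, the channel genes held 0.549 interior peaks per 100 kb and all protein-coding genes 0.43. By class, the channel genes held 0.484 per 100 kb, against 0.331 for all genes, at 100 kb or more. Between 20 and 100 kb the rates were nearly equal, with 0.54 in the channel genes, from 4 peaks, and 0.555 in all genes. Below 20 kb the channel genes held 5.02 per 100 kb, from 4 peaks, against 0.645. Neighbouring genes moved the comparison as well. Of 29 channel genes with no other protein-coding end within 2 kb of theirs, 21 had an end peak (72.4%), against 47.5% of all such genes.

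**Figure D2:**
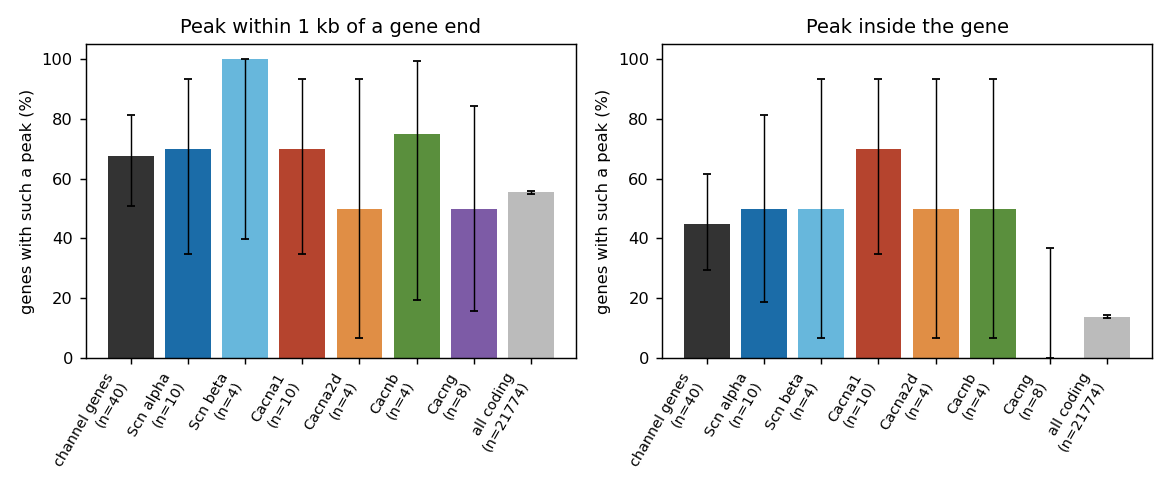
Share of genes (%) with an H2AZ peak within 1 kb of an end (left) and inside the gene (right), for the 40 channel genes, each family and all 21774 protein-coding genes; bars are shares and whiskers 95% exact binomial intervals. The Scn beta genes reach 100.0% at gene ends, the Cacna1 genes 70.0% inside, and no Cacng gene has an interior peak.

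The sodium channel alpha genes split between those with a high, a low and no end peak. Of 10 genes, 7 had an end peak, with a median score of 13.4. Scn8a, which encodes the main sodium channel of mature axon initial segments and nodes, had the highest, 25.65 (chromosome 15, 100869706 to 100872446, rank 913 of all listed peaks). It was also the only channel gene with a peak at each end: another peak, of 13.12, lay at its 3' end, and interior peaks of 13.72 and 7.46 lay between them. Scn1a, the sodium channel gene of Dravet syndrome and of inhibitory interneurons, had an end peak of 13.42 and an interior peak of 11.04 at 31.6 kb from its 5' end. Scn2a, the early axonal channel of excitatory neurons, had an end peak of only 6.86. Scn3a, the channel best known from embryonic brain, had 6.56 and no interior peak. The end peaks of the 4 brain channel genes thus ran from rank 18898 to rank 913 by score.

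Of the alpha genes known from other tissues, 3 named here had no end peak. Scn9a, a channel gene of peripheral sensory and sympathetic neurons, had an end peak of 13.48, and Scn7a, which encodes a sodium-sensing channel of glia, had 7.46. Scn4a, the skeletal muscle channel gene, had no end or interior peak, and the nearest listed peak lay 8.0 kb outside it. Scn10a, a channel gene of pain-sensing neurons, also had none, with the nearest peak at 11.8 kb. Scn11a, its neighbour with a like role, had no end peak but an interior peak of 10.06 that was 3333 bp wide.

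The sodium channel beta genes Scn2b, Scn3b and Scn4b each had an end peak. Scn3b had a score of 16.41, Scn4b of 14.32 and Scn2b of 10.14. These are short genes of 22.4, 15.5 and 12.2 kb. Scn2b and Scn4b lie side by side on chromosome 9 within 36.3 kb, which held 4 listed peaks: each gene had a peak at its 5' end and an interior peak, of 6.77 in Scn2b and 13.72 in Scn4b. A further peak of 11.33 lay 1141 bp before Scn2b, just outside the window.

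The Cacna1 pore genes had the most interior peaks. End peaks were found at 7 of 10 and interior peaks in 7 of 10, and no Cacna1 gene lacked both. The Cacna1 genes held 19 of the 34 interior peaks of the channel genes, or 0.808 per 100 kb, against 0.43 for all protein-coding genes. By length the sodium channel beta genes held more, 3.3 per 100 kb, from 2 peaks. The Cacna1 genes had a median length of 135 kb, and 42.8% of all genes of at least 100 kb had an interior peak. Cacna1a, the P/Q-type channel gene of presynaptic terminals, had 6 interior peaks, with scores of 5.59, 17.0, 7.16, 16.7, 6.26 and 11.04 in the order of their coordinates. At least 6 interior peaks were found in 34 of 21774 protein-coding genes (0.156%). That share covers genes of all lengths, with a median of 17.2 kb, while Cacna1a is 301.6 kb long. No share was computed for genes of like length. The only end peak of Cacna1a, 10.44, lay at its higher coordinate on chromosome 8, and no strand was used for this gene. Cacna1b, the N-type channel gene, had an end peak of 19.32 and an interior peak of 7.21. Cacna1e, the R-type channel gene, had an end peak of 9.84 and 4 interior peaks of 6.18 to 14.62.

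The L-type genes mostly had their highest peak away from the gene ends. Cacna1c, the L-type channel gene of heart, smooth muscle and brain, had no end peak but interior peaks of 21.18, 20.73 and 10.14. The peak of 20.73 also lay within 1 kb of an end of Dcp1b. Cacna1d, the other neuronal L-type gene, had no end peak, but an interior peak of 27.74 on chromosome 14 from 30351743 to 30354923, which was the highest score of all peaks assigned to channel genes (rank 471). Its other interior peaks scored 10.3, within 1 kb of an end of Dcp1a, and 8.54. Cacna1f, the retinal L-type gene and the only X-linked channel gene here, had an interior peak of 12.83. Its end peak of 8.05 lay wholly outside the gene, 816 bp away, and also within 1 kb of an end of Ccdc22. Cacna1s, the skeletal muscle gene, had an end peak of 11.63 that lay 840 bp outside it and within 1 kb of an end of Ascl5, and no peak inside. Of the 28 end peaks of the channel genes, these 2 were wholly outside the gene, and 3, with that of Cacnb1 and Rpl19, were shared with another gene.

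Of the T-type genes, whose channels open at low voltage, Cacna1g had an end peak of 12.83 and Cacna1i one of 11.33. Cacna1h had none by the 1 kb rule. Its interior peak of 20.58 (chromosome 17, 25432263 to 25435256) ended 1078 bp from the higher coordinate of the gene, so it counts as an end peak with a window of 2 kb.

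The alpha2delta genes ranged from 3 peaks to 0. Cacna2d2 had an end peak of 20.28 and interior peaks of 8.05 and 11.93. Cacna2d1, which encodes the gabapentin-binding subunit, had an end peak of 13.72 and no interior peak in 440.2 kb. Cacna2d4, a retinal subunit gene, had interior peaks of 8.59 and 11.04, the first beside an end of Lrtm2, and no end peak. Cacna2d3, the longest channel gene at 817.8 kb, had no peak at all, and the nearest listed peak lay 84.7 kb outside it.

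Among the beta subunit genes, Cacnb4 (23.56) and Cacnb1 (21.77) had the second and the third highest end peaks of the channel genes, and Cacnb2 had 11.48. Cacnb4 had a further interior peak of 4.72, the lowest score of any peak of a channel gene (rank 21466). Cacnb3 had no end peak but 2 interior peaks, of 10.44 and 11.33, within its 16.1 kb.

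The gamma genes were the only family without an interior peak. End peaks were listed at 4 of 8 (50.0%), near the 55.4% of all protein-coding genes. They were those of Cacng4 (14.02), Cacng2 (12.53), Cacng5 (11.33) and Cacng3 (6.86), all below the median of all genes. Interior peaks were listed in 0 of 8 (exact interval 0 to 36.9%), against 13.8% of all protein-coding genes. The gamma genes had a median length of 38.3 kb, and 19.0% of all genes of 20 to 100 kb had an interior peak. Cacng2 encodes stargazin, the prototype AMPA receptor regulatory protein. Cacng7, Cacng8 and Cacng6 lie together on chromosome 7 over 103.6 kb in which no peak was listed. The nearest listed peak was the same for each, at 217.3 kb from Cacng7, 169.3 kb from Cacng8 and 149.9 kb from Cacng6. The autosomes as a whole held 8.76 listed peaks per Mb. In the Cacng cluster of chromosome 11, by contrast, Cacng4 and Cacng5 had an end peak and Cacng1, which encodes the gamma subunit of skeletal muscle, had none, with the nearest peak 76.3 kb away.

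The sodium channel alpha genes of chromosome 2 lie in a pair of groups. Scn3a and Scn2a together held 3 listed peaks in 310.3 kb, and Scn1a, Scn9a and Scn7a held 4 in 514.1 kb. These are 9.67 and 7.78 peaks per Mb, near the 8.76 of the autosomes as a whole. All 5 genes had an end peak. Each is longer than 100 kb, and 67.5% of all protein-coding genes of at least 100 kb had one.

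The peaks at gene ends lay mostly at the 5' end. The RefSeq starts give the strand of 30 channel genes, and 20 of these had a peak at the 5' end (66.7%), against 53.1% of all 17492 protein-coding genes with a listed start. A peak at the 3' end was found for 1, Scn8a (3.33%), against 7.29% of all these genes. The midpoints of the 20 peaks at 5' ends lay 27 to 1704 bp from the end, with a median of 436.5 bp. A further 7 end peaks belonged to genes without a listed strand.

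**Figure D3:**
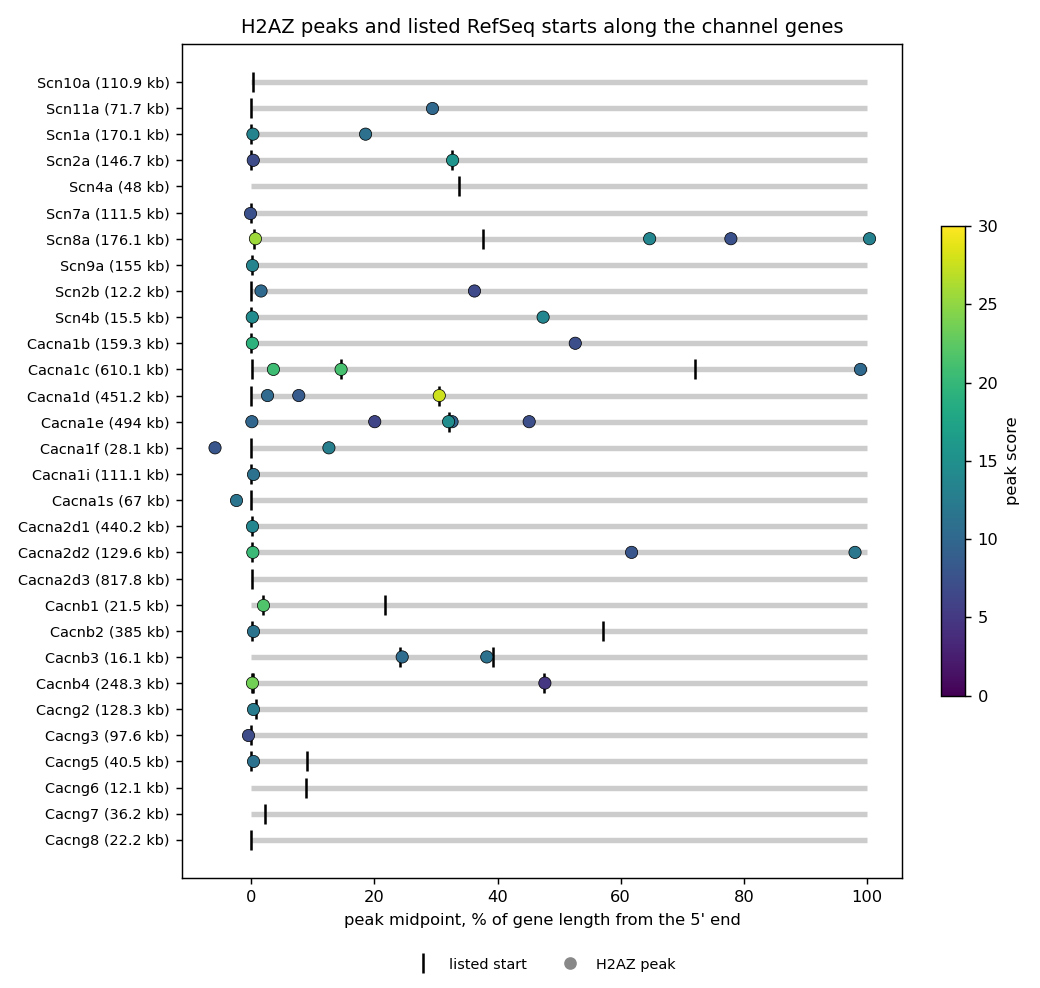
Position of each H2AZ peak midpoint along the 30 channel genes with a listed strand, as % of gene length from the 5' end; circles are peaks coloured by score and vertical ticks are the RefSeq starts. Peaks at a 5' end number 20 and sit near 0, 24 peaks lie inside the genes and 1 at a 3' end, and those of highest score inside Cacna1d, Cacna1c and Scn2a sit on a listed start.

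Where a gene has several starts, the peak did not always mark the outermost. Of the 41 listed starts of channel genes 27 had a peak within 1 kb (65.9%), against 54.3% of all 21263 listed starts. Of these, 14 lie more than 1 kb inside the gene, and 7 of the 14 had a peak (50.0%), against 48.1% of all such inner starts. Cacna1d had no peak at its first start, while the peak of 27.74 lay at the second, 137.7 kb further in. These are the starts shown above with 2 and 41 CpG dinucleotides. Cacna1c had no peak at its first start and its peak of 21.18 at the second, 88.9 kb inside the gene, with none at the third. Scn2a had a peak at both, of 6.86 at the first start and 15.51 at the second, 47.9 kb inside.

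Other genes showed the opposite order. Cacnb4 had 23.56 at its outer pair of starts, which share 1 peak, and 4.72 at the inner start 118.0 kb inside. Scn8a, Cacnb1, Cacnb2 and Cacng5 had a peak at the outer start and none at the inner one. In all, 8 channel genes have both an outer and an inner start, and the peak was at the outer start alone in 4, at the inner start alone in 2 and at both in 2. Of 1333 protein-coding genes with both, 383 had a peak at the outer start alone, 164 at the inner alone (12.3%), 465 at both and 321 at neither. Scn4a, Cacng6, Cacna1e and Cacnb3 have listed starts only inside the gene, and those of Scn4a and Cacng6 had no peak. The 14.62 peak of Cacna1e lay at its start, and both peaks of Cacnb3 lay at starts.

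Interior peaks at a listed start had a higher median score than the others. Of 24 interior peaks in channel genes with a listed start, 7 lay within 1 kb of such a start, with a median score of 14.6 (4.72 to 27.74), and the other 17 had a median of 10.1 (6.18 to 20.73). Over all protein-coding genes 1134 interior peaks at a listed start had a median of 14, and the 2315 others one of 8.05. An interior peak of a channel gene was at a listed start in 29.2% of cases, against 32.9% over all genes. Only starts of the channel gene itself counted for its peaks. Among the other peaks, that of 20.73 in Cacna1c lay within 1 kb of an end of Dcp1b. That of 10.3 in Cacna1d lay within 1 kb of an end of Dcp1a. None of the rest lay within 1 kb of an end of another protein-coding gene. Whether they lie at inner starts of such genes, at non-coding genes, or at starts that RefSeq does not list, was not examined.

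The share of starts with a peak was larger where the 300 bases held more CpG dinucleotides. With 15 or more, 15 of 17 starts of channel genes had a peak (88.2%), against 82.8% of all such starts. With 5 to 14 it was 9 of 14 (64.3%), against 53.0%. With 4 or fewer it was 3 of 10, against 8.25%. These 3 were the first start of Scn2a, with 3 CpG, and those of Scn7a, with 3, and Scn2b, with 2, and their peaks scored 6.86, 7.46 and 10.14. The 2 CpG-rich starts without a listed peak were those of Cacna2d3, with 41, and Cacng7, with 15. Cacna2d2, of like composition with 43, had a peak of 20.28.

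Peaks at CpG-rich starts of channel genes also ranked higher by score. With 15 or more CpG their median score was 19.3, against 17.9 at all such starts. With 5 to 14 it was 11.6, against 14.6. With 4 or fewer it was 7.46, from 3 starts, against 12.5. Across the 27 channel gene starts with a peak, Spearman's correlation between CpG number and score was 0.77, against 0.27 across all 11537 such starts. These starts come from 1 library, and the starts of Cacnb4 share a peak, so both values are descriptions. CpG number also went with GC share. The median was 50.2% GC at listed channel gene starts with 4 or fewer CpG, and 72.0% with 15 or more. The channel gene starts with a peak had a median of 20 CpG and those without 4.5, while all starts with a peak had 21.0 and all without 4.0.

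**Figure D4:**
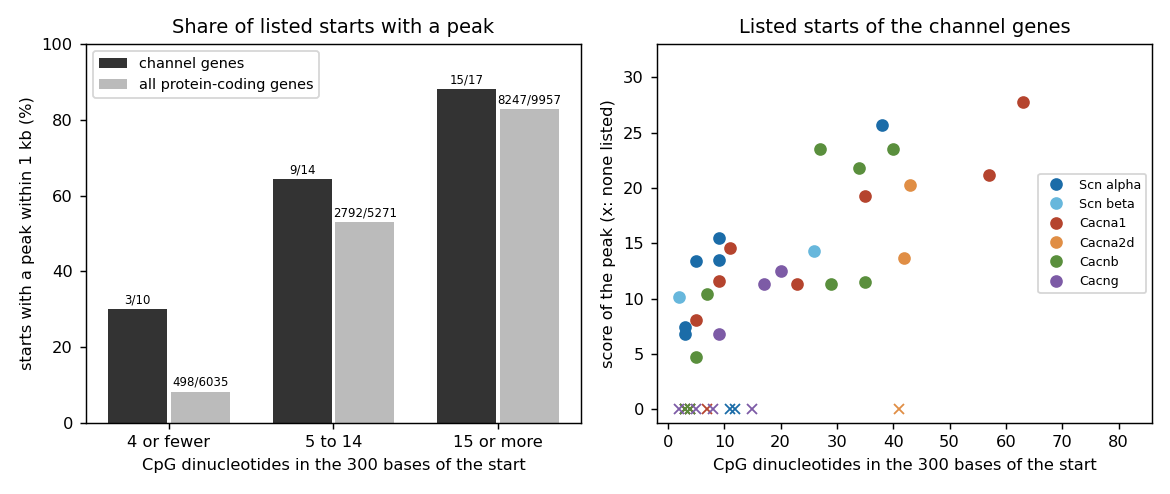
Left, share of listed starts (%) with an H2AZ peak within 1 kb by number of CpG dinucleotides, for channel genes and all protein-coding genes, with the counts above the bars; right, score of the peak at each listed start of a channel gene against its CpG number, with crosses at 0 for starts without a listed peak. The channel genes reach 88.2% in the CpG-rich class, and Cacna2d3 is the lone cross at 41 CpG.

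Short promoter motifs were searched on both strands of the 300 bases. The GC box letters GGGCGG were found at 16 of 41 channel gene starts (39.0%), against 46.2% of all starts, and 14 of these 16 had a peak (87.5%), against 77.9% of all starts with these letters. CCAAT was found at 10 (24.4%), against 38.2%, and TATAAA at 2 (4.88%), against 12.6%. The TATAAA matches were at the second start of Scn2a, which had a peak, and at the first start of Cacna1d, which had none. The repressor REST is known to bind a long element that joins CAGCACC and GGACAGC, and Scn2a is among its classic targets. The first of these letters were found at 0 channel gene starts, against 7.24% of all starts, and the second at 2, those of Cacnb1 and Cacng6 (4.88%), against 6.88%. None of these motifs contains another, and overlaps between their matches were not counted. A match describes these letters in this window alone.

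Genes that work with the channels were counted in the same way, without a test. Calcium channel partners and regulators had one at 16 of 18, with a median score of 15.2, led by Cabp1 (25.57), which encodes a calcium-binding regulator, the anchoring protein gene Akap5 (23.18) and the calcineurin gene Ppp3ca (22.33). Rims1 and Rims2, of the presynaptic active zone, had none, though Rims2 held an interior peak of 17.11. Partners of sodium channels and the axon initial segment had one at 10 of 12 (median 17.0), among them Mapk8ip2 (21.48) and the spectrin gene Sptbn4 (20.58), whose peak lay within 1 kb of an end of Blvrb. Fgf13 and Nedd4l had none, but interior peaks of up to 12.53 and 17.6. Genes of calcium release and store-operated entry had one at 12 of 15 (median 17.6), led by the store sensor gene Stim2 (25.65), the pore gene Orai1 (24.29) and the ryanodine receptor gene Ryr2 (22.07), and Itpr2 and Jph1 had none. All 3 shares, 88.9, 83.3 and 80.0%, stood beside 55.4% of all protein-coding genes.

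Other sodium and cation channels gave shares of 50.0 and 62.5%, beside the same 55.4%. The group of the sodium leak channel, the endosomal channels and the sperm channels had one at 5 of 10, with the leak channel gene Nalcn at 30.43, above every channel gene of the main set, then Catsper2 (18.79, within 1 kb of an end of Pdia3) and Tpcn1 (17.6, within 1 kb of an end of Iqcd). Catsper1 and Catsper3 had none. Epithelial and acid-sensing sodium channels had one at 5 of 8, with Asic1 (24.76), Scnn1a (23.86, within 1 kb of an end of Ltbr) and Asic2 (13.72) highest and Asic3 and Asic4 without. Interior peaks were listed in Scnn1a (24.76), Asic2 (4, of up to 8.65) and Asic4 (2, of up to 9.84). REST and its corepressors, which repress neuronal genes outside neurons, had one at 6 of 8, led by Rcor3 (24.76), Rcor1 (22.67) and Hdac2 (18.49). Hdac1 and Sin3a had none, though Sin3a held 2 interior peaks, of up to 14.62.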

How the data were processed

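ChIP-seq of H2AZ and an input were made from neural progenitor cells of the embryonic mouse brain, with 1 library each, and 1 list of 21592 peaks was used. The authors' deposited file has no header and gives a position, a name and a score per peak; the score is the authors' value in a unit that is not stated. The other deposited values used are the start and end in bp, with starts counted from 0 and printed here counted from 1. Each peak is named after MACS, a peak caller, per the deposited file, and the submitters' processing notes name CASAVA 1.4, FastQC, Bowtie2 2 and the build mm9. The caller's version and settings, the use of the input and the criterion for listing a peak were not stated in the labels or the file.

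Positions were read as GRCm38, not mm9: 55.4% of protein-coding genes in the GRCm38.p6 RefSeq table had an end peak, against 12.2 and 12.0% with the windows moved 100 kb down and up. None was converted. The 46 peaks numbered after the last peak of the Y chromosome were left out. Genes on unplaced sequences were left out, leaving 21774 protein-coding genes. An overlap of 1 bp with a window counted. The channel genes, partner lists and comparisons were chosen with earlier results of these data known. Any channel gene could be named, and of each partner list the 3 genes with the highest end peak and the alphabetically first 2 lacking one. Some genes that this rule takes are counted but not reported here by name. For a marker list only the count is given. Strand and starts came from the RefSeq promoter table, which matched 30 of 40 genes; motifs and CpG classes are descriptions. Intervals are 95% Clopper-Pearson intervals.

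Alternatives were other windows, overlap rules, score limits and gene sets. Computations used Python 3.11.15, numpy 2.4.6, pandas 2.3.3 and scipy 1.17.1, and the calls were tested on simulated data against a gene-by-peak comparison.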

Additional observations from a re-analysis of the deposited data

How the results depend on the processing

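Of 31 recomputed values, 23 stayed within 1.5 times the reported count or within the exact interval of the reported median (10.44 to 16.41), and 8 moved further. With windows of 500 bp, 2 kb and 5 kb, 25, 28 and 29 channel genes had an end peak, and with the midpoint or most of the peak required in the window 25 had one, against 27 as reported; the share of all protein-coding genes ran from 50.8 to 60.8%. The counts depended on the score. At or above the median score 15 channel genes had an end peak (37.5%) and 10 an interior peak (25%), against 9659 (44.4%) and 1325 (6.09%) of all protein-coding genes. At or above the upper quartile these were 7 (17.5%) and 3 (7.5%) channel genes, against 5496 (25.2%) and 593 (2.72%). The end share of channel genes was above that of all genes with every listed peak and below it in both restricted lists. With no other gene end within 2 kb, 7015 of 14764 genes (47.5%) had an end peak. No paired analysis was possible because each group has 1 library and no test was made. Depth is unknown, so a gene without a listed peak cannot be told apart from one whose peak fell under the listing criterion.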
